A study of Homo sapiens with 14 samples.

Results

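Nuclear speckle scaffolds and SR-type splicing factors were followed as 35 genes, taken by symbol from a list of known components, among the 54628 gene symbols counted in 14 RNA-seq libraries. The cells were IMR90, a line of primary human lung fibroblasts. The groups were untreated cells (WT, 2 libraries), untreated cells given siRNA against HMGB2 (siHMGB2, 2 libraries), cells given inflachromene (ICM, 4 libraries), and ICM-treated cells labelled as knocked down for SRRM2, BANF1 or CTCF (2 libraries each). ICM, a small molecule that binds HMGB proteins, was given at 10 µM for up to 6 days to induce senescence, and the knockdown groups other than siHMGB2 carry it too. The titles of ICM 3, ICM 4 and both siCTCF libraries have another form than those of the other 10 libraries, and the cell line field of these 4 holds a running series of names in place of IMR90. The ICM libraries were therefore treated as 2 pairs, ICM 1-2 and ICM 3-4, and siCTCF was compared with ICM 3-4 while the other knockdowns in ICM-treated cells were compared with ICM 1-2.

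Nuclear speckles are bodies between chromatin domains in which splicing factors gather, and the large proteins SRRM2 and SON form their core. SR proteins carry an RNA-binding domain and a tail of arginine-serine repeats, bind exonic enhancers and recruit the U1 and U2 particles to splice sites. Kinases of the SRPK and CLK families phosphorylate these tails and so set where SR proteins sit and how active they are. Many genes of SR proteins also make transcripts with a poison exon that are degraded, through which the proteins hold down their own levels.

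The members were checked in the files before any comparison. All 35 symbols were listed, and 34 passed the filter on low counts. CLK2 had 1 count over all 14 libraries and was not tested. U2AF1, the small subunit of the factor that binds the 3′ splice site, had 0 to 62 counts in a library. It has a near-identical annotated copy on chromosome 21, so that its values are uncertain. SRSF12 stayed at or under 1.093 CPM, where CPM is the count of a gene divided by the gene counts of its library and multiplied by 1000000. The other 32 members are described in every group, and their levels in untreated cells spanned SF3B1 at 452.0 CPM, with SRRM2 next at 446.5 CPM, down to LUC7L2 at 7.487 CPM. Per kilobase of annotated exon, which allows genes to be compared with one another, SRSF1 was highest in WT (65.73 CPM per kb), followed by SRSF2 (52.89), SRSF6 (51.76) and SF3B1 (49.32). SRRM2 stood at 33.66 and SON at 21.77 on that scale, and CLK3 (2.486) and LUC7L2 (1.185) were lowest of the 32.

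The libraries differed in ways that touch these values. Gene counts per library spanned 22336161 to 58257456. Small RNA genes held 3.19% to 6.06% of gene counts in the 6 libraries of ICM 1-2 and of the groups labelled siSRRM2 and siBANF1, and at most 0.0083% in the other 8. Reads assigned to no annotated feature made up 16.3% in ICM 1 and 18.4% in the library labelled siBANF1 1, against 2.69% to 8.87% elsewhere. Marker sums also moved with the sets of libraries. The 10 fibroblast markers summed to 23380 to 43780 CPM in WT and siHMGB2, 5495 to 18830 CPM in ICM 1-2 and the groups labelled siSRRM2 and siBANF1, and 2544 to 5443 CPM in ICM 3-4 and siCTCF. In the same order the 8 epithelial markers summed to 56.27 to 101.1, 34.28 to 175.6 and 190.8 to 212.4 CPM, with KRT18, a keratin, from 17.72 to 193.7 CPM. The 6 endothelial markers summed to 62.74 to 89.66, 65.11 to 243.6 and 2.726 to 17.42 CPM, with TEK, an angiopoietin receptor, from 2.502 to 240.9 CPM. The 6 immune markers summed to 39.27 to 48.07, 56.42 to 88.88 and 88.38 to 103.9 CPM, with CD68, a lysosomal protein of macrophages, from 39.09 to 103.8 CPM. The defining markers CDH1, KRT5, SFTPC, CDH5, PTPRC and CD3E stayed under 0.1 CPM in every library. The part of these shifts in the results was not tested, and in bulk RNA fewer cells of a type and less RNA per cell cannot be told apart. HMGB2 counted 27.68 and 28.01 CPM in WT but 3.178 and 3.522 CPM in siHMGB2, and CTCF counted 94.87 and 91.92 CPM in ICM 3-4 but 71.5 and 22.97 CPM in siCTCF. For BANF1, ICM 1-2 held 13.52 and 32.72 CPM, the pair labelled siBANF1 16.96 and 36.72 CPM, and the pair labelled siSRRM2 34.24 and 33.34 CPM, so that it was not lower in either. SRRM2 was lowest in the libraries labelled siBANF1, and the deposited file names give these 4 libraries the opposite knockdown. They are called by their labels here. SRRM2 was also lower in the pair labelled siSRRM2 (76.05 and 76.42 CPM) than in ICM 1-2 (237.8 and 112.4 CPM). BANF1 was not lower under its own label. Every direction drawn from these 4 libraries therefore rests on labels that the target levels do not fully bear out.

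The stretches of 120 bases just before the start annotated in RefSeq are shown for 5 members. SRRM2 and SON are the scaffolds described in every library, and SRSF5, SRSF6 and SRSF10 are SR genes called lower in both ICM pairs. The gene ranges given elsewhere come from GENCODE v29, which places some starts differently. The stretches of SRRM2, SON, SRSF5 and SRSF10 lie within those ranges. They are RefSeq sequences of GRCh38.p14, written 5′ to 3′ on the gene's strand, at chr16:2752518-2752637 (plus, SRRM2), chr21:33542918-33543037 (plus, SON), chr20:43457776-43457895 (plus, SRSF6), chr14:69767022-69767141 (plus, SRSF5) and chr1:23980328-23980447 (minus, SRSF10). Capitals mark matches on either strand to the GC box GGGCGG, the CCAAT box CCAAT, the TATA box TATAAA, the ETS core CCGGAAG and the CRE core TGACGT.
SRRM2: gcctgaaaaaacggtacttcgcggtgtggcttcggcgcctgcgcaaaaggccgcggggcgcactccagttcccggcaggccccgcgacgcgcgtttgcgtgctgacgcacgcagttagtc
SON: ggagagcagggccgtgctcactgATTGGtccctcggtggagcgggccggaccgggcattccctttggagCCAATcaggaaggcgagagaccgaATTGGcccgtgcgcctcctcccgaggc
SRSF6: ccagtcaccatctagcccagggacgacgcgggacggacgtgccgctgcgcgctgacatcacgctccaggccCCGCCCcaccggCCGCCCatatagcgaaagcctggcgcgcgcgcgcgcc
SRSF5: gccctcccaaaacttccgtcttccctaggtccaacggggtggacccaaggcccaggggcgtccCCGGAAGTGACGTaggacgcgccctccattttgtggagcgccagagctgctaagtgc
SRSF10: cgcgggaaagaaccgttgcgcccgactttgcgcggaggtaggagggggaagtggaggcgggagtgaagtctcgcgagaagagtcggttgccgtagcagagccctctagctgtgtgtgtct

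The SON stretch held 3 CCAAT matches, that of SRSF6 held 2 GC box matches, and that of SRSF5 held an ETS core directly followed by a CRE core. The SRRM2 and SRSF10 stretches held 0 matches, which says only that these letters are not in these windows. RefSeq promoter entries were matched for 32 members, and SRSF2, RBM39 and TRA2A had no entry. Over 250 bases before the start, the CRE core was found in 9 of 32 members (28.12%), against 12.03% of the tested genes and 8.617% of all genes with an entry. The ETS core was found in 7 members (21.88% against 16.88% of tested genes), the GC box in 21 (65.62% against 70.07%), the CCAAT box in 11 (34.38% against 40.43%) and the TATA box in 3 (9.375% against 8.83%). These shares are descriptions of letters, and no binding was measured.

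SRRM2 and SON, both speckle scaffolds, had separate patterns across the libraries. SRRM2 (chromosome 16, 2752329 to 2772538, plus strand) counted 417.1 and 475.9 CPM in WT, then 368.1 and 381.8 CPM in siHMGB2. In ICM-treated cells the pairs lay on opposite sides of WT, with 237.8 and 112.4 CPM in ICM 1-2 but 658.4 and 846.2 CPM in ICM 3-4. The pair labelled siSRRM2 held 76.05 and 76.42 CPM, the pair labelled siBANF1 58.98 and 17.01 CPM, and siCTCF 656.6 and 664.4 CPM. No library of the first 3 of these ICM-treated groups, ICM 1-2, siSRRM2 and siBANF1 by label, reached the lowest WT value, and every ICM 3-4 and siCTCF library lay above the highest.

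SON (chromosome 21, 33542618 to 33577481, plus strand) moved less. It was at 258.7 and 314.8 CPM in WT, 276.1 and 251.8 CPM in siHMGB2, and 287.8 and 323.4 CPM in ICM 1-2. The libraries labelled siSRRM2 held 228.4 and 227.7 CPM and those labelled siBANF1 486.6 and 267.5 CPM, so that the pair labelled siBANF1 straddled the ICM 1-2 values. ICM 3-4 held 656.8 and 811.6 CPM and siCTCF 732.7 and 724.4 CPM, above every other library. The ratio of SRRM2 to SON counts ran from 1.333 to 1.612 in the WT and siHMGB2 libraries and from 0.8962 to 1.043 in ICM 3-4 and siCTCF. It was 0.8262 in ICM 1 and 0.3474 in ICM 2, 0.333 and 0.3356 in the libraries labelled siSRRM2, and 0.1212 and 0.0636 in those labelled siBANF1.

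**Figure D1:**
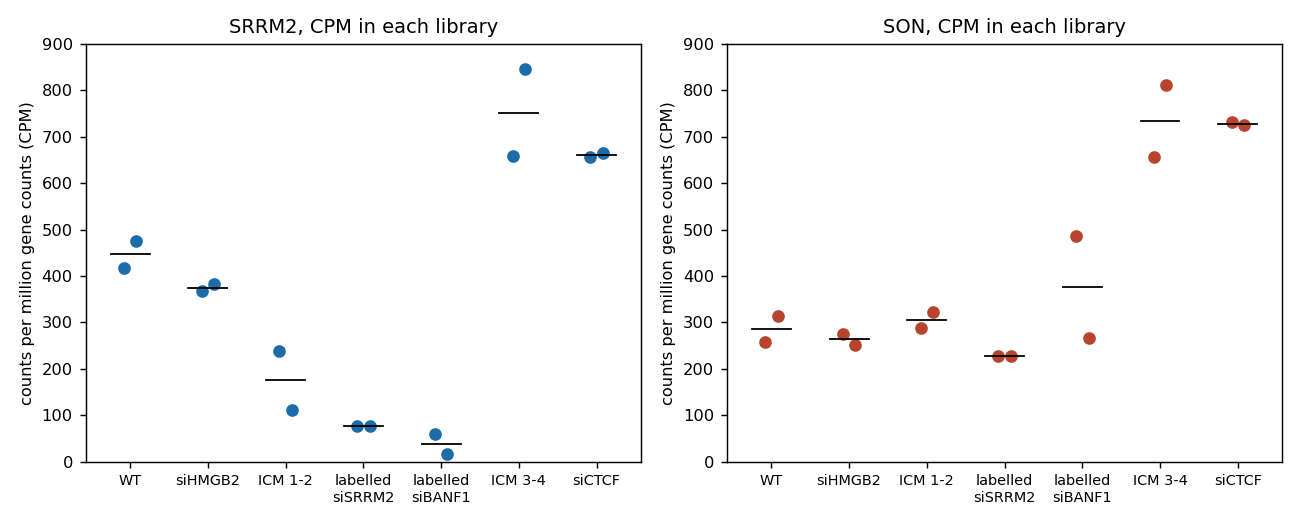
CPM of SRRM2 (left) and SON (right) in each of the 14 libraries, with points for libraries and a line for the mean of each group of 2. SRRM2 is lowest in the libraries labelled siBANF1 (58.98 and 17.01 CPM), and both genes are highest in ICM 3-4 and siCTCF.

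SRRM1, the smaller SR-related matrix protein that works with SRRM2 as a splicing coactivator, counted 82.7 and 88.7 CPM in WT, then 81.8 and 82.1 CPM in siHMGB2. ICM 1-2 held 37.9 and 33.5 CPM, and ICM 3-4 114.9 and 131.7 CPM. The libraries labelled siSRRM2 had the lowest levels of all, 19.0 and 17.4 CPM, those labelled siBANF1 had 57.3 and 28.6 CPM, and siCTCF had 116.0 and 123.6 CPM. ICM 1-2 lay under WT and ICM 3-4 above it in every library.

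Of the partners of the exon junction complex, the protein mark left on mRNA after splicing, ACIN1 (acinus) was at 259.9 and 257.3 CPM in WT, 99.7 and 160.4 CPM in ICM 1-2 and 275.0 and 364.1 CPM in ICM 3-4. PNN (pinin) was at 122.0 and 121.2 CPM in WT, 36.8 and 89.2 CPM in ICM 1-2 and 46.5 and 98.0 CPM in ICM 3-4. The spread within each ICM pair of PNN was therefore larger than the gap between the pairs. RNPS1, which activates splicing and joins the complex, was at 113.8 and 112.3 CPM in WT, 55.1 and 134.3 CPM in ICM 1-2 and 224.5 and 187.3 CPM in ICM 3-4.

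Among SR proteins, SRSF6 (chromosome 20, 43457928 to 43464247, plus strand) had the lowest levels relative to WT of those above 1.093 CPM. It was at 230.7 and 244.7 CPM in WT, 204.3 and 173.8 CPM in siHMGB2, 69.5 and 61.8 CPM in ICM 1-2 and 56.0 and 60.8 CPM in ICM 3-4. No ICM library came near an untreated one, and the libraries labelled siSRRM2, at 41.4 and 40.9 CPM, were lower than both ICM pairs. The libraries labelled siBANF1 had 71.6 and 56.0 CPM and siCTCF had 60.4 and 62.2 CPM.

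SRSF2, a speckle marker protein that acts at exonic enhancers, was at 159.9 and 159.3 CPM in WT, 53.4 and 81.7 CPM in ICM 1-2 and 83.2 and 89.2 CPM in ICM 3-4. SRSF5 was at 248.1 and 229.8 CPM in WT, 126.3 and 124.5 CPM in ICM 1-2 and 110.6 and 132.6 CPM in ICM 3-4. SRSF3, the smallest SR protein and an adaptor for mRNA export, was at 217.7 and 201.1 CPM in WT, 90.4 and 140.2 CPM in ICM 1-2 and 112.7 and 109.3 CPM in ICM 3-4. All 3 lay below WT in every ICM library. In SRSF2, 36.7% of the exon bases overlap MFSD11 on the opposite strand, and how the counting treated strand is not given in the sources used here.

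SRSF10, a splicing repressor once dephosphorylated, was at 124.0 and 119.2 CPM in WT, 62.4 and 74.9 CPM in ICM 1-2 and 43.0 and 63.2 CPM in ICM 3-4. SRSF11 was at 277.0 and 295.6 CPM in WT, 149.7 and 173.6 CPM in ICM 1-2 and 113.9 and 174.9 CPM in ICM 3-4. SRSF1, the founding family member, was at 219.6 and 219.5 CPM in WT, 127.8 and 173.0 CPM in ICM 1-2 and 114.8 and 95.3 CPM in ICM 3-4. These 3 were also lower than WT in every ICM library, though 69.8% of the exon bases of SRSF1 overlap other annotated genes. SRSF7 was at 111.7 and 101.5 CPM in WT, 51.7 and 73.7 CPM in ICM 1-2 and 76.1 and 55.4 CPM in ICM 3-4.

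SRSF4, SRSF8 and SRSF9 had another order. SRSF4 was at 95.0 and 96.4 CPM in WT, 45.3 and 86.8 CPM in ICM 1-2 and 183.6 and 144.1 CPM in ICM 3-4, so that the ICM pairs lay on opposite sides of WT. SRSF8 was at 24.3 and 22.7 CPM in WT, 14.8 CPM in ICM 1 but 51.4 CPM in ICM 2, while ICM 3-4 held 63.9 and 63.3 CPM. SRSF9 was at 151.4 and 133.1 CPM in WT, 87.7 and 121.4 CPM in ICM 1-2 and 176.6 and 146.0 CPM in ICM 3-4, and 46.2% of its exon bases overlap GATC on the opposite strand. SRSF12 had 38 counts over the WT libraries, 14 over ICM 1-2 and 0 in ICM 3-4. Against a floor of 3 counts over the pair, it was at least 8.915-fold lower in ICM 3-4 than in WT, a bound that covers counting error only. Summed over the 12 SR protein genes, levels were 1860 and 1823 CPM in WT, 1556 and 1453 CPM in siHMGB2, 879.2 and 1163 CPM in ICM 1-2, and 1134 CPM in both ICM 3 and ICM 4.

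TRA2A and TRA2B are the SR-like homologues of the fly Transformer-2 protein, which bind exonic GAA-type enhancers. TRA2A (chromosome 7, 23504780 to 23532041, minus strand) was at 94.7 and 84.7 CPM in WT, 26.3 and 24.5 CPM in ICM 1-2 and 21.4 and 35.2 CPM in ICM 3-4. TRA2B was at 138.3 and 124.4 CPM in WT, 59.6 and 104.7 CPM in ICM 1-2 and 95.7 and 83.0 CPM in ICM 3-4. Both were below WT in all 4 ICM libraries, TRA2A by more.

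Among the 5 kinases of SR proteins tested, CLK1 was the one below WT in every ICM library. SRPK1, the kinase that phosphorylates SR proteins in the cytoplasm, was at 94.1 and 88.2 CPM in WT, 77.2 and 158.4 CPM in ICM 1-2 and 97.7 and 118.0 CPM in ICM 3-4. SRPK2, its relative, stayed between 42.6 and 64.3 CPM in all 14 libraries. CLK1, a nuclear kinase that releases SR proteins from speckles, was at 94.7 and 94.8 CPM in WT, 69.8 and 72.0 CPM in ICM 1-2 and 32.8 and 47.2 CPM in ICM 3-4, in the order WT, ICM 1-2, ICM 3-4 with no overlap. CLK3 was at 51.1 and 50.6 CPM in WT, 29.03 and 65.61 CPM in ICM 1-2 and 96.2 and 84.5 CPM in ICM 3-4. CLK4 was at 18.1 and 21.7 CPM in WT, 18.03 and 21.56 CPM in ICM 1-2 and 7.95 and 16.4 CPM in ICM 3-4.

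Of the factors that recognise the branch point and 3′ splice site, U2AF2, the large U2AF subunit, was at 202.3 and 179.5 CPM in WT, 97.1 and 210.3 CPM in ICM 1-2 and 330.3 and 345.4 CPM in ICM 3-4. SF3B1, the U2 particle protein at the branch point, was at 432.3 and 471.6 CPM in WT, 486.3 and 871.1 CPM in ICM 1-2 and 342.8 and 614.4 CPM in ICM 3-4. SF3B1 was therefore above both WT libraries in ICM 1, ICM 2 and ICM 4 and below them in ICM 3.

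LUC7L, LUC7L2 and LUC7L3 are human relatives of a yeast U1 particle protein that helps to choose the 5′ splice site. LUC7L (chromosome 16, 188969 to 229463, minus strand) was at 69.6 and 69.7 CPM in WT, 29.7 and 27.0 CPM in ICM 1-2 and 26.2 and 22.6 CPM in ICM 3-4. LUC7L3 was at 170.0 and 166.4 CPM in WT, 67.1 and 52.5 CPM in ICM 1-2, and 46.9 CPM in ICM 3 but 118.9 CPM in ICM 4. LUC7L2 was at 7.21 and 7.76 CPM in WT, 3.57 and 3.28 CPM in ICM 1-2 and 11.9 and 9.85 CPM in ICM 3-4, and it shares exons with annotated readthrough genes, so its counts are uncertain. RBM25, a U1-associated regulator, was at 149.6 and 167.0 CPM in WT, 61.4 and 90.7 CPM in ICM 1-2 and 81.4 and 136.3 CPM in ICM 3-4. RBM39, a U2AF-related factor, was at 265.8 and 274.2 CPM in WT, 214.7 and 290.9 CPM in ICM 1-2 and 149.1 and 208.5 CPM in ICM 3-4. SREK1, an SR-related regulator, overlapped between WT (75.4 and 79.8 CPM) and ICM 1-2 (58.0 and 85.8 CPM), and was at 37.4 and 70.9 CPM in ICM 3-4.

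**Figure D2:**
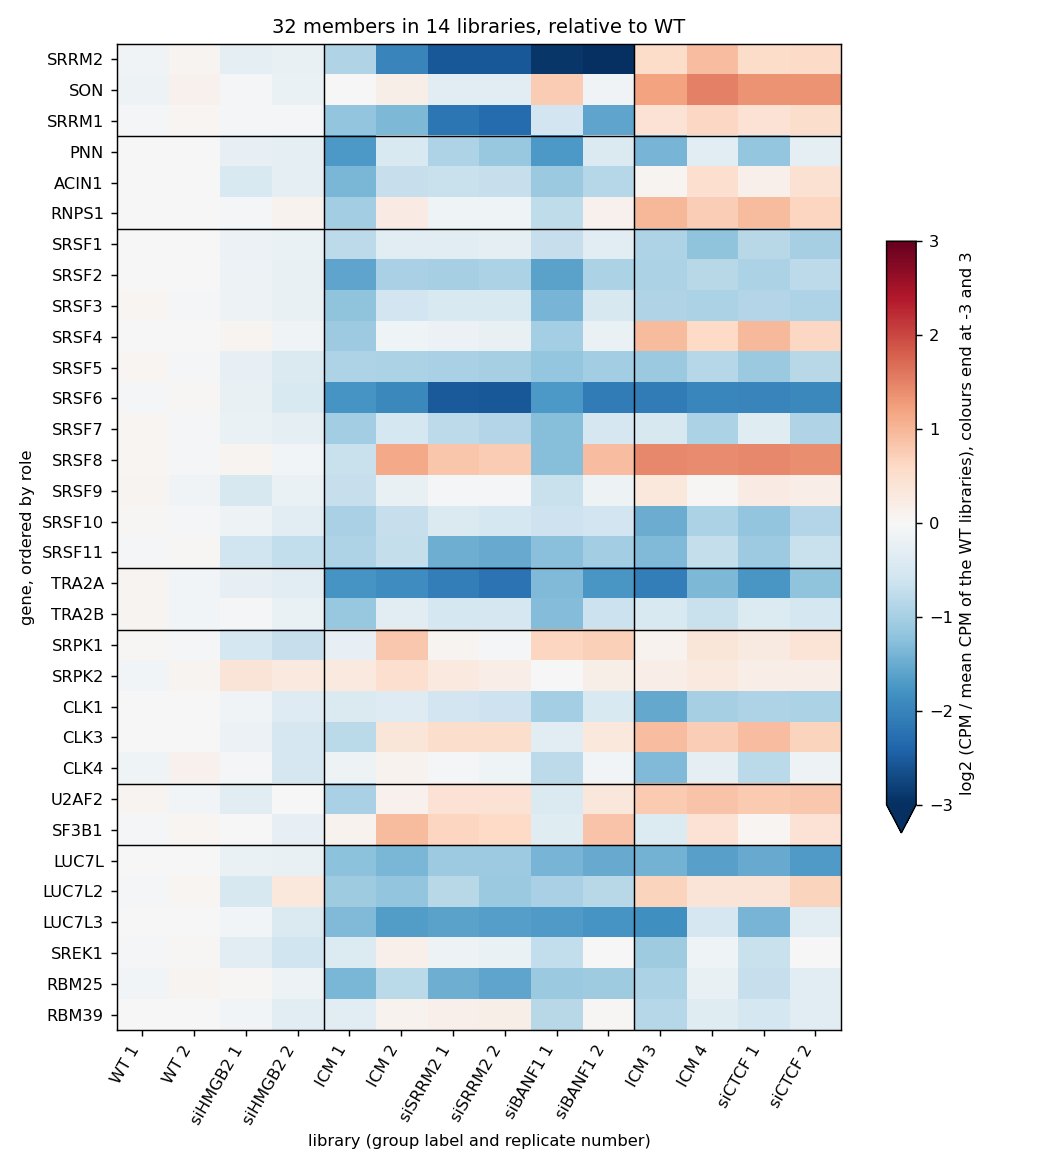
Each cell gives the log2 ratio of a member's CPM to its mean CPM over the WT libraries, for 32 members (not U2AF1, SRSF12 and CLK2) in the 14 libraries. Groups are named by their labels, the colours end at -3 and 3, and SRRM2 in the library labelled siBANF1 2 lies beyond the lower end. SRSF6, TRA2A and LUC7L are low in every ICM-treated library, while SRRM2, SON and SRRM1 differ between the left and right blocks of ICM-treated libraries.

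ICM 1-2 against WT asks how these genes differ after ICM treatment, given to induce senescence. Of the genes read as senescence checks, LMNB1 (-3.49, SE 0.33) and MKI67 (-5.83, SE 0.93) were called lower. CDKN1A was not called (1.64, SE 0.69). It counted 1186 and 1225 CPM in WT, 1529 CPM in ICM 1 and 6974 CPM in ICM 2, so the 2 ICM libraries were unlike. Of 34 members tested, 13 fell and 0 rose at an adjusted p under 0.05 (38.24% of members), where 13.5% of all 19126 genes were called, 6.63% higher and 6.87% lower. The CPM values of the pairs did not overlap in 25 of the 34, as in 57.3% of all genes. Those 13 were SRSF6, TRA2A, LUC7L3, LUC7L, SRRM1, SRSF2, LUC7L2, RBM25, ACIN1, SRSF5, SRSF3, SRSF10 and SRSF11. The median log2 fold change was -0.94 over the members and 0.10 over all genes tested. SRSF6 fell the most, by 1.98 on the log2 scale (SE 0.23; Benjamini-Hochberg adjusted p 0.000919 by quasi-likelihood in edgeR). TRA2A fell by 1.95 (SE 0.28) and LUC7L3 by 1.61 (SE 0.41). LUC7L (-1.43, SE 0.22), SRRM1 (-1.39, SE 0.32) and SRSF2 (-1.39, SE 0.24) followed. For SRRM2 the log2 fold change was -1.46 (SE 0.54), which did not pass edgeR's quasi-likelihood test (adjusted p 0.0949). For SON it was -0.04 (SE 0.31). Small RNA genes held 6.06% and 3.19% of gene counts in ICM 1-2 but 0.0082% and 0.0083% in WT. This difference in library content and the treatment cannot be told apart in this comparison.

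By role, 1 of 3 scaffolds, 1 of 3 exon junction partners, 6 of 12 SR proteins, 1 of 2 TRA2 proteins, 0 of 5 kinases tested, 0 of 3 factors of the 3′ splice site and 4 of 6 of the U1-associated and other factors were called lower in ICM 1-2. In a fit of the 4 compared libraries alone, 0 of 34 members were called, where 0.173% of all genes were. Without WT 1 or without WT 2 the count was 4, beside 2.94% and 2.85% of all genes, and without both ICM 1 and the library labelled siBANF1 1 it was 22, 19 of them lower, beside 45.9% of all genes. SRRM2 was among those 19 (-2.20, SE 0.19). A fit that leaves a group with 1 library assumes that this library varies like the other groups.

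ICM 3-4 against WT used the same WT libraries, so the 2 comparisons are not independent, and the form of title and the treatment cannot be told apart there. Of 34 members, 16 fell and 1 rose, 17 in all, where 30.3% of all genes were called, 14.3% higher and 16.0% lower. Of the 34, 32 had CPM values that did not overlap between the pairs, as did 75.9% of all genes. The gene that rose was SON, from 286.8 ± 39.61 to 734.2 ± 109.4 CPM (SD, n = 2 libraries each), a log2 fold change of 1.11 (SE 0.31; Benjamini-Hochberg adjusted p 0.0229 by quasi-likelihood in edgeR). This call was lost when any 1 of WT 1, WT 2, ICM 3 or ICM 4 was left out, with log2 fold changes from 0.98 to 1.25. SRSF6 fell by 2.27 on the log2 scale (SE 0.24), TRA2A by 1.92 (SE 0.29), LUC7L by 1.75 (SE 0.23), CLK1 by 1.49 (SE 0.23), SRSF10 by 1.45 (SE 0.21) and SRSF1 by 1.30 (SE 0.23). LUC7L3, SRSF11, SRSF5, SRSF3, SRSF2, SRSF7, RBM39, RBM25 and TRA2B were also called lower, with log2 fold changes from -1.29 to -0.79, and SRSF12 is given by its bound above. SRRM2 stood at 0.51 on the log2 scale (SE 0.53) and did not pass.

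The median over the members was -0.82 in ICM 3-4, against -0.02 over all genes. By role, 9 of 12 SR proteins, both TRA2 proteins, 1 of 5 kinases tested and 4 of 6 of the U1-associated and other factors were called lower, 0 of 3 exon junction partners and 0 of 3 factors of the 3′ splice site were called, and SON was the scaffold called higher. The count of called members was 10 without WT 1, without WT 2 or without ICM 3, beside 12.1%, 10.0% and 13.6% of all genes. With the 4 compared libraries alone it was 25, 7 higher and 18 lower, where 47.0% of all genes were called, and without ICM 1 and the library labelled siBANF1 1 it was 27, 7 higher and 20 lower, beside 54.8%. Total-count scaling, used instead of TMM (the trimmed mean of M-values), moved the median of all genes from 0.10 to 0.24 in ICM 1-2 and from -0.02 to 0.18 in ICM 3-4, and left 11 and 11 members lower, beside 5.91% and 12.8% of all genes. The calls over all genes were 2732 higher and 3065 lower in ICM 3-4 with TMM, and 3448 higher and 2449 lower with total counts.

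**Figure D3:**
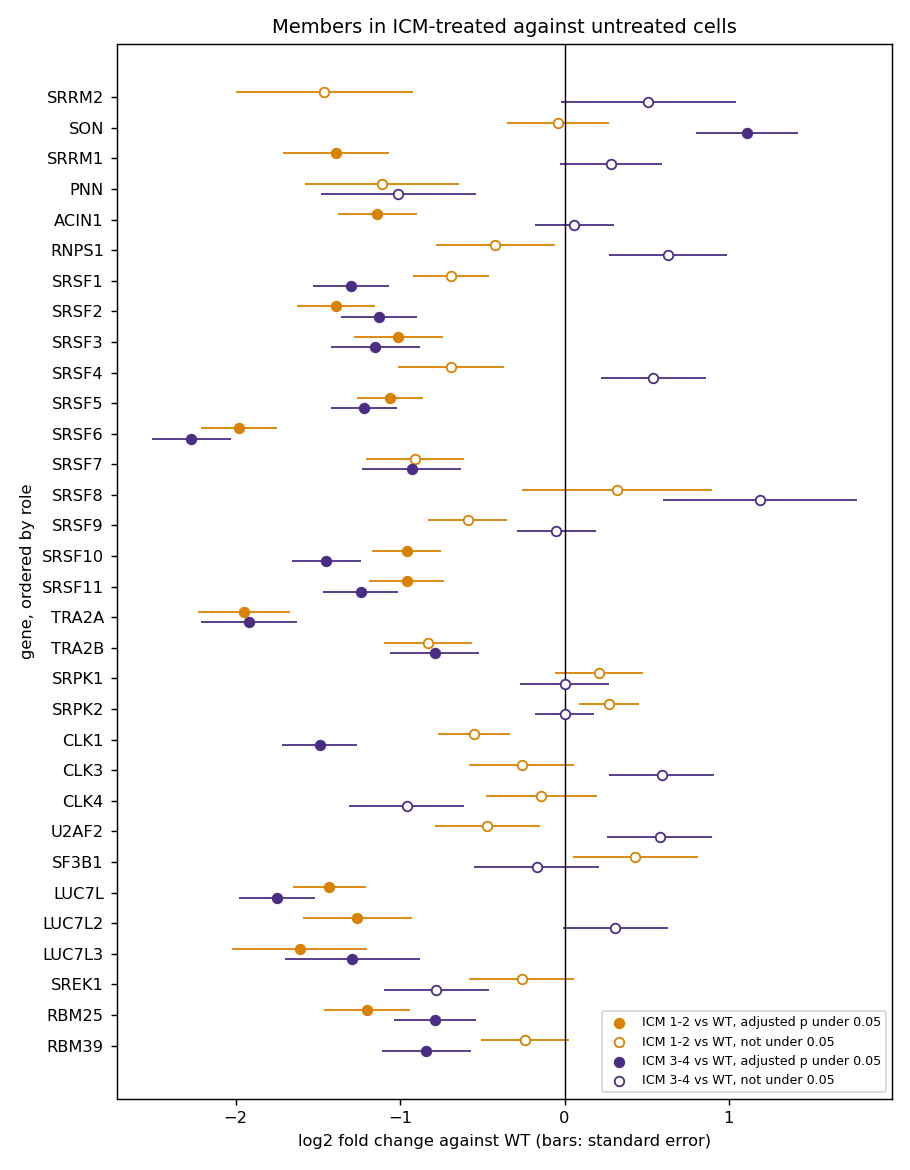
Log2 fold change against WT (horizontal axis, bars for the standard error of the fit) of 32 members in ICM 1-2 and ICM 3-4, with filled points at an adjusted p under 0.05. SRSF6, TRA2A and LUC7L lie at -1.43 or lower in both pairs, while SRRM2 and SRRM1 lie below 0 in ICM 1-2 and above 0 in ICM 3-4.

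The direct comparison of ICM 3-4 with ICM 1-2, the same treatment label, called 7 members higher and 2 lower (26.47%), where 19.5% of all genes were called and 8.53% of all genes were called higher. The pairs did not overlap in 21 of 34 members and in 56.0% of all genes. All 3 scaffolds were higher in ICM 3-4. SRRM2 was at 752.3 ± 132.8 against 175.1 ± 88.68 CPM (SD, n = 2 libraries each), a log2 fold change of 1.96 (SE 0.54; Benjamini-Hochberg adjusted p 0.0303 by quasi-likelihood in edgeR). SRRM1 (1.67, SE 0.32), LUC7L2 (1.56, SE 0.33), SRSF4 (1.23, SE 0.32), ACIN1 (1.20, SE 0.24), SON (1.16, SE 0.31) and U2AF2 (1.06, SE 0.32) were the others called higher. CLK1 fell by 0.94 (SE 0.22), and SRSF12 was at least 2.231-fold lower. Small RNA genes held 3.19% to 6.06% of counts in ICM 1-2 and at most 0.0083% in ICM 3-4, and their part in these differences was not tested.

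SRSF6 (65.69 against 58.37 CPM), TRA2A (25.39 against 28.33 CPM), SRSF5 (125.4 against 121.6 CPM) and SRSF3 (115.3 against 111.0 CPM) were close in mean between ICM 1-2 and ICM 3-4, and none of the 4 was called. The count of 9 was 4 without ICM 1, 2 without ICM 3 and 5 without ICM 4, beside 7.72%, 6.31% and 8.65% of all genes, and 0 with the 4 compared libraries alone, where 1.25% of all genes were called. Without ICM 1 and the library labelled siBANF1 1 it was 12, beside 27.2% of all genes. SRRM2 itself lost its call without ICM 2, ICM 3 or ICM 4, with log2 fold changes of 1.47, 2.08 and 1.86.

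The 2 libraries of a pair were not equally close for these genes. Between ICM 1 and ICM 2 the CPM ratio ran from 28.82% (SRSF8) to 211.6% (SRRM2), and 7 of 32 members differed by more than 2-fold. In the pair labelled siBANF1 it ran from 21.64% (SRSF8) to 346.7% (SRRM2). SRRM2 was therefore higher in replicate 1 of both pairs while most members, 24 and 25 of 32, were lower there. The shares of all genes beside these counts were not computed. The median absolute log2 ratio in ICM 1-2 was 0.4896 over the members and 0.5797 over all genes tested. In the pair labelled siBANF1 these medians were 0.6358 and 0.5918, so the members differed about as much as all genes. In the pair labelled siSRRM2 the members' CPM ratio stayed between 95.77% and 122.8% and in WT between 82.2% and 113.8%. In ICM 3 over ICM 4 the ratio was lowest for LUC7L3 (39.43%) and PNN (47.47%).

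The libraries labelled siBANF1 against ICM 1-2 were set up to ask what BANF1, a protein that bridges chromatin and the nuclear envelope, does in ICM-treated cells. Among the members the gene that stood apart there was SRRM2. It was at 24.8% of ICM 1 in replicate 1 and at 15.14% of ICM 2 in replicate 2, while the next lowest members were CLK4 at 63.85% and SRPK2 at 79.37%. Of 9202 tested genes averaging 10 CPM or more, SRRM2 alone was at or below 24.8% in both ratios. The larger of the BANF1 ratios was 125.4%. The log2 fold change of SRRM2 was -2.16 (SE 0.55), and SON, with 1 ratio above and 1 below 100%, had one of 0.36 (SE 0.31). No member was called, 0 of 34, with 0.0% of all genes called by edgeR's quasi-likelihood test, 1 member (SRRM2) at an unadjusted p under 0.05, as 3.09% of all genes, and 0 by DESeq2, which called 0.0889%. The pairs did not overlap in 10 of 34 members and 14.5% of all genes.

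By quasi-likelihood in edgeR, Benjamini-Hochberg adjusted over all genes, SRRM2 had a p of 1.0 in that comparison, and its alternatives ran from 1.301e-05 to 1.0. It was 0.00344 by the same edgeR test without ICM 1 and the library labelled siBANF1 1 (log2 fold change -2.70, SE 0.21), where 0.0157% of all genes were called, and the lowest value came with no filter on low counts. The main fit does not pair same-numbered libraries, whose deviations correlated at 0.809 between ICM 1-2 and siBANF1. With a replicate block and the compared libraries only, SRRM2 was called lower (-2.36, SE 0.24, edgeR quasi-likelihood adjusted p 0.0171). It was the only 1 of 19126 genes called there. With 2 libraries against 2, an exact permutation test of a single gene cannot reach p = 0.05.

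The libraries labelled siSRRM2 against ICM 1-2 were set up to ask the same of SRRM2. SRRM2 was at 31.98% of ICM 1 and 68.01% of ICM 2, and 466 of the 9202 genes had both ratios at or below the larger of these. SRRM1 was lower in both, at 50.08% and 51.96%. The log2 fold changes were -1.23 (SE 0.53) for SRRM2, -0.98 (SE 0.32) for SRRM1 and -0.42 (SE 0.31) for SON, and none was called. That of SRRM2 was -0.49 without ICM 1 and -1.72 without ICM 2. Of 34 members 0 were called by edgeR's quasi-likelihood test, with 0.178% of all genes called, 5 members at an unadjusted p under 0.05, as 11.3% of all genes, and 1 called by DESeq2, SRSF11 (-0.71). DESeq2 called 3.8% of all genes there, so that its count of 1 was near the background. The pairs did not overlap in 19 of 34 members and 41.5% of all genes. Without ICM 1 and the library labelled siBANF1 1, SRRM1 (-0.81), SRPK1 (-0.71) and SRSF6 (-0.52) were called lower, beside 10.5% of all genes.

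Because both groups share the ICM 1-2 controls, they were also compared with each other. The libraries labelled siBANF1 had lower SRRM2 than those labelled siSRRM2 in every pairing, 58.98 and 17.01 against 76.05 and 76.42 CPM, with a log2 fold change of -0.92 (SE 0.53) that was not called. SRRM1 differed by 1.31 (SE 0.32) and SON by 0.79 (SE 0.31) in the other direction. Of 34 members 0 were called by edgeR's quasi-likelihood test, with 0.272% of all genes called, 5 members at an unadjusted p under 0.05, as 15.5% of all genes, and 2 called higher by DESeq2, SRRM1 and SRSF6. Without the library labelled siBANF1 2 the edgeR count was 4, with SON, SRRM1 and SRSF6 higher and SRSF8 lower. DESeq2 called 6.97% of all genes, and edgeR without that library 11.1%, so that both counts were near the background. Without ICM 1 and the library labelled siBANF1 1 it was 3, SRRM2 lower (-2.21) and SRRM1 (0.61) and SRPK1 (0.65) higher, beside 8.11% of all genes. The pairs did not overlap in 20 of 34 members and 44.1% of all genes.

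**Figure D4:**
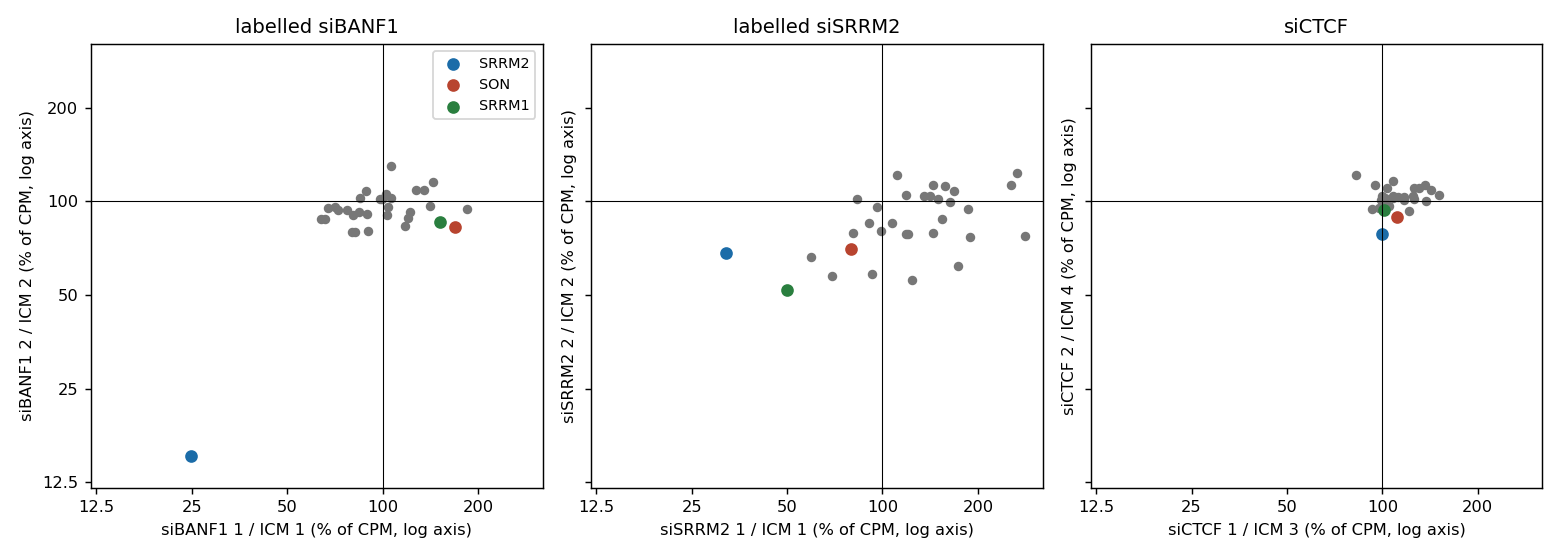
CPM of 32 members in a knockdown library as a percentage of the same-numbered ICM library (siCTCF 1 and 2 over ICM 3 and 4), replicate 1 on the horizontal and replicate 2 on the vertical axis, both log axes. SRRM2 stands at 24.8% and 15.14% in the libraries labelled siBANF1, apart from the other members, and no member stands apart in siCTCF.

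siCTCF against ICM 3-4 asks whether loss of CTCF, the architectural DNA-binding protein, alters these genes in senescent cells. SRRM2 was at 99.73% and 78.52% and SON at 111.6% and 89.26% of the same-numbered ICM libraries. The members' ratios lay between 82.62% (LUC7L2) and 151.3% (CLK1) in replicate 1 and between 78.52% (SRRM2) and 121.6% (LUC7L2) in replicate 2. The log2 fold changes ran from -0.18 to 0.32, with -0.18 (SE 0.53) for SRRM2 and -0.01 (SE 0.31) for SON. Of 34 members 0 were called by edgeR's quasi-likelihood test, with 0.0% of all genes called, 0 members at an unadjusted p under 0.05, as 0.654% of all genes, and 0 called by DESeq2, which called 0.0%. The pairs did not overlap in 1 of 34 members, and in 17.1% of all genes. CTCF itself was at 71.5 CPM in siCTCF 1 and at 22.97 CPM in siCTCF 2, so that the knockdown was unequal. Its log2 fold change of -0.96 (SE 0.52) was not called either.

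siHMGB2 against WT asks whether loss of HMGB2 in untreated cells, without ICM, alters them. In CPM, without TMM scaling, 25 of 32 members were lower in siHMGB2 1 than in WT 1. In siHMGB2 2 against WT 2 it was 28, most by little. With TMM scaling the log2 fold change was below 0 in 28 of 34 members and in 9548 of 19126 genes tested. SRSF11 was at 190.4 and 172.7 CPM against 277.0 and 295.6 CPM, and SRPK1 at 63.2 and 56.5 CPM against 94.1 and 88.2 CPM. SRPK2 was higher, at 58.8 and 55.1 CPM against 42.6 and 47.5 CPM. The median log2 fold change was -0.16 over the members and 0.00 over all genes, with -0.20 (SE 0.53) for SRRM2 and -0.07 (SE 0.31) for SON. Of 34 members 0 were called by edgeR's quasi-likelihood test, with 0.0% of all genes called, 1 member at an unadjusted p under 0.05, as 4.75% of all genes, and 0 called by DESeq2, which called 0.382%. The pairs did not overlap in 24 of 34 members and 49.0% of all genes. HMGB2 itself was not called in this fit (-3.0, SE 0.44, edgeR quasi-likelihood adjusted p 0.201). The count of 0 members therefore does not show that they were unchanged. With ICM 1 and the library labelled siBANF1 1 left out, 0 members were called beside 1.35% of all genes. With the 4 compared libraries alone the same test called SRSF11 (-0.60), SRPK1 (-0.55) and SREK1 (-0.40) lower and SRPK2 (0.40) higher, where 10.7% of all genes were called. The 4 libraries of this comparison were close to one another, and their own spread replaced that of all 14 libraries in that fit.

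Other splicing genes were read from 4 fixed lists. In ICM 1-2 against WT, where 13.5% of all genes were called, hnRNP proteins, which often oppose SR proteins at splice sites, had 12 of 24 called lower and 0 higher, with a median of -1.20. HNRNPA1 (-2.77, SE 0.37) and HNRNPA3 (-2.56, SE 0.34) had the largest changes. Of 41 core spliceosome genes 6 (14.63%) were lower and 0 higher (median 0.14), a share near that of all genes, with SF3A2 (-1.70) and SNRNP70 (-1.69) the lowest. Of 28 other arginine-serine and speckle proteins 5 were lower, with CDK11A (-1.76) and SRRT (-1.69), and 2 higher, and of 15 exon junction core and mRNA export genes 1 was lower, the export receptor NXF1 (-1.03).

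In ICM 3-4 against WT, where 30.3% of all genes were called, the core spliceosome list had 7 of 41 genes higher and 1 lower (19.51% called, median 0.65), with SF3B5 (1.58) and SF3B4 (1.41) the largest. The hnRNP list had 6 of 24 lower and 0 higher, with HNRNPA1 at -2.53 and PTBP2 at -2.16. The other arginine-serine and speckle proteins had 6 of 28 higher and 5 lower (39.29% called), with SCAF1 at 2.30 and CCNL2 at -1.86, and the export list had NXF1 (1.39) and CASC3 (1.30) higher. NXF1 was thus called lower in ICM 1-2 and higher in ICM 3-4, and it differed between them by 2.43 (SE 0.29). In the direct comparison of ICM 3-4 with ICM 1-2, where 19.5% of all genes were called, these lists had 9 higher and 1 lower (other arginine-serine and speckle proteins), 6 and 0 (core spliceosome), 2 and 0 (export) and 10 and 1 (hnRNP). In the other 5 comparisons edgeR's quasi-likelihood test called 0 genes of the 4 lists.

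The annotation bears on what a gene count can show for these genes. In GENCODE v29 the members have a median of 13 annotated transcripts, against 7 over 13149 protein-coding genes tested. Without adjustment for that number, 33 of 35 members (94.29%) have a transcript annotated as a target of nonsense-mediated decay, against 41.84% of those genes. A transcript with a retained intron is annotated for 31 members (88.57%), against 56.34% of those genes. Reads from such transcripts and from coding ones enter the same gene count, so that none of the values above separates them, and splicing itself was not analysed here.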

How the data were processed

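RNA of 14 libraries was extracted with Trizol and a DNase step and made into TruSeq libraries read from both ends, per the labels' protocols. The authors deposited raw counts for each gene symbol, with a file for each library. The submitters' processing notes name STAR 2.7.3a, HTSeq 0.12.4, DESeq2 1.36.0 and hg38; the strand setting and annotation release are not given in the sources used here. The 5 lines for reads given to no gene held 12.8% to 41.8% of the reads of a library and were left out.

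CPM used total gene counts. The 19126 genes kept by filterByExpr on 7 groups entered edgeR 4.0.16 (R 4.3.3), with TMM scaling and its quasi-likelihood test, as 1 model of all 14 libraries with 7 residual degrees of freedom. P-values were adjusted by Benjamini-Hochberg over all genes tested, and a gene was called under 0.05. The standard error is the log2 fold change divided by the square root of F. The fit was also run on simulated counts in which all groups shared the same spread for a gene. The real pairs differed in spread, with a median absolute log2 ratio over all genes tested of 0.08119 in siSRRM2 and 0.5918 in siBANF1. The simulation therefore does not test the fit under unequal spread. The labels do not say that libraries of a group came from separate cultures, so p-values measure only the spread between these libraries.

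The members and lists were chosen with earlier results of these data known. Members past the threshold were named, at most 12 by size with full values where more passed, with SRRM2 and SON always, and at most 2 genes of each other list. Floors for groups at 0 used 3 counts.

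Alternatives were an adjusted p under 0.01, scaling by relative log expression or total counts, no filter, DESeq2 1.42.0, protein-coding genes only, a replicate block, the compared libraries only, ICM 3-4 as controls and each library left out; leaving out ICM 1 with siBANF1 1, the libraries with most reads in no feature, was chosen after seeing the data. Gene models came from GENCODE v29 and promoters from RefSeq. Python 3.11.15 with numpy 2.4.6, pandas 2.3.3 and matplotlib 3.10.9 was used elsewhere.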

Additional observations from a re-analysis of the deposited data

Results flagged for a closer look

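The 2 pairs of ICM libraries carry the same treatment label, and 9 of 34 members (26.47%) differed between them by a direct test. In the same test 19.5% of all genes were called (edgeR's quasi-likelihood test, adjusted p under 0.05). The log2 fold changes of ICM 3-4 against ICM 1-2 were 1.96 for SRRM2, 1.67 for SRRM1, 1.56 for LUC7L2, 1.23 for SRSF4, 1.20 for ACIN1, 1.16 for SON and 1.06 for U2AF2, and -0.94 for CLK1. The fitted value for SRSF12 was -5.45, which depends on the prior count because ICM 3-4 held 0 counts, and its bound is at least 2.231-fold lower. The share of small RNA genes, the share of reads in no feature and the form of the titles differ between the same pairs, and their part was not tested.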

How the results depend on the processing

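The number of called members depended on the setting, and beyond fewer samples or a stricter threshold the cause was not tested. At an adjusted p under 0.01 the counts were 5 for ICM 1-2 against WT, 10 for ICM 3-4 against WT and 2 for ICM 3-4 against ICM 1-2, beside 3.71%, 10.6% and 6.1% of all genes. With the compared libraries only they were 0 for ICM 1-2 against WT, 0 for ICM 3-4 against ICM 1-2 and 4 for siHMGB2 against WT. The shares of all genes beside them were 0.173%, 1.25% and 10.7%. With no filter they were 1 for siSRRM2 and 1 for siBANF1 against ICM 1-2, SRRM2 in both, and 1 for siBANF1 against siSRRM2, beside 2.41%, 0.477% and 4.03% of all genes. With DESeq2 they were 1 for siSRRM2 against ICM 1-2 and 2 for siBANF1 against siSRRM2, beside 3.8% and 6.97% of all genes. With ICM 3-4 as the controls they were 10 for siSRRM2 and 6 for siBANF1, beside 22.4% and 15.8% of all genes. Without ICM replicate 1 and siBANF1 replicate 1 they were 22 for ICM 1-2 against WT, 27 for ICM 3-4 against WT, 3 for siSRRM2 and 1 for siBANF1 against ICM 1-2, 3 for siBANF1 against siSRRM2 and 12 for ICM 3-4 against ICM 1-2. Leaving out each library in turn leaves a group with 1 library. The count then changed for ICM 1-2 and ICM 3-4 against WT, for siBANF1 against siSRRM2 and for ICM 3-4 against ICM 1-2. In these comparisons the share of all genes called changed too.

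The sign of SON turned in 4 comparisons in which it was not called. In ICM 1-2 against WT it was 0.01 with relative log expression scaling, DESeq2 and the compared libraries only, 0.05 with protein-coding genes, 0.09 with total counts, 0.18 with the replicate block, and -0.17 to 0.10 with a library left out. In siHMGB2 against WT it ran from -0.19 to 0.08 with a library left out. In siBANF1 against ICM 1-2 it ran from -0.24 to 0.79 with a library left out, and was -0.79 with ICM 3-4 as the controls and -0.25 without ICM 1 and siBANF1 1. In siCTCF against ICM 3-4 it was 0.01 with no filter, with the compared libraries only and with those libraries and the replicate block, and -0.10 to 0.08 with a library left out. Over the 47 results for single genes, 625 values under alternatives held 495 with the same direction and side of the threshold, 100 that lost the call, 14 that gained it and 16 that turned.

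The labels do not say whether same-numbered libraries were prepared together, and the main fit does not pair them. Their deviations from the group means correlated at 0.062 for WT and siHMGB2, -0.002 for ICM 1-2 and siSRRM2, 0.809 for ICM 1-2 and siBANF1, 0.472 for ICM 3-4 and siCTCF and 0.011 for siSRRM2 and siBANF1. With the replicate block the counts were 14 for ICM 1-2 and 17 for ICM 3-4 against WT, 11 for ICM 3-4 against ICM 1-2 and 0 for the other 5, beside 8.64%, 25.4% and 28.8% of all genes in the first 3. In ICM 3-4 against WT 14 of the 17 were shared with the fit without the block, and SON was not called (1.14, edgeR quasi-likelihood adjusted p 0.054). With the block and the compared libraries only, they were 3 for siHMGB2 against WT, beside 2293 of the 19126 genes. For siBANF1 against ICM 1-2 the count was 1 (SRRM2, -2.36, edgeR quasi-likelihood adjusted p 0.0171), beside 1 of the 19126 genes.

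SRSF12, U2AF1 and CLK2 had few or no counts, which limits what can be read from them, and the reason was not tested. Intervals and floors cover counting error only. With 2 libraries a group, a difference that was not called is not shown to be absent.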
